A study of Mus musculus with 9 samples.

Results

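The phagocyte NADPH oxidase is the enzyme with which neutrophils and macrophages make superoxide, a source of reactive oxygen that lies outside mitochondria. Its subunit genes Cybb, Cyba, Ncf1, Ncf4 and Rac2, 5 of the 36119 genes in the deposited table, were taken by gene name and followed across the livers of mice given oleanolic acid (OA), a plant triterpenoid that causes cholestatic liver injury at high dose. Whole liver RNA was sequenced from 9 wild-type (WT) male C57BL/6J mice aged 6 to 8 weeks, 3 in each group. The ZnPP+OA mice received protoporphyrin IX zinc (ZnPP), an inhibitor of heme oxygenase-1, by intraperitoneal injection at 20 mg/kg 2 h before OA. The OA mice received OA by gavage, at 295.5 mg/kg in the sample labels and 295.92 mg/kg in the treatment protocol, and the Cont mice received corn oil by gavage. Treatment ran for 4 days, and the protocol names saline as the counterpart of the ZnPP injection. None of the 9 mice was given ZnPP without OA.

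At rest the oxidase is held in separate pieces. A membrane cytochrome made of Cybb (gp91phox, also called NOX2, which passes electrons to oxygen) and Cyba (p22phox, which stabilizes it) waits in vesicle and plasma membranes, while Ncf1 (p47phox, the organizer) and Ncf4 (p40phox, which binds a phosphoinositide of phagosome membranes) wait in the cytosol. When a phagocyte meets a microbe or an immune complex, phosphorylated Ncf1 brings the cytosolic proteins to Cyba, the GTPase Rac2 joins them, and the burst of superoxide begins. In the liver the enzyme is known mainly from Kupffer cells, the resident macrophages, and from recruited neutrophils and monocytes. Cyba also serves other NADPH oxidases outside phagocytes, such as the Nox4 enzyme, and Rac2 is a GTPase of blood cells in general.

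Library totals were 32639438 to 85060187 counts, and genes of the mitochondrial genome took 59.0 to 68.7% of them in ZnPP+OA livers, 13.7 to 38.2% in OA livers and 43.2 to 74.7% in Cont livers. Together with their nuclear copies they left 4946748 (Cont 2) to 70295836 counts (OA 3) for all other genes. The 12 hepatocyte markers summed to between 22676 and 74555 CPM in the 9 libraries, so markers of the labelled tissue were abundant in each. CPM are counts scaled to a common library size, here corrected by the trimmed mean of M values (TMM). The TMM factors were 0.474 to 0.758 in ZnPP+OA livers, 1.83 to 2.53 in OA livers and 0.265 to 1.26 in Cont livers. Nothing in the labels says that replicate numbers mark shared litters or days, and p-values measure the spread between these livers.

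Promoters of the genes are shown because 4 of the 5 genes moved together in the OA livers, and because the letters searched are those of factors known for myeloid genes. RefSeq promoter entries (build GRCm38.p6) matched 3 of the 5 genes, Cybb, Ncf1 and Cyba. The 250 bases before each start were searched on both strands. The letters were GAGGAA, a form of the site recognized by ETS factors such as PU.1, and the longer GAGGAAGT that contains it. Also searched was TTTC followed after any 2 bases by a further TTTC, the repeat recognized by interferon regulatory factors. The last 180 of the 250 bases are printed 5′ to 3′ in the direction of the gene, with matches in capitals.
Cybb (chrX:9469325-9469504, minus strand): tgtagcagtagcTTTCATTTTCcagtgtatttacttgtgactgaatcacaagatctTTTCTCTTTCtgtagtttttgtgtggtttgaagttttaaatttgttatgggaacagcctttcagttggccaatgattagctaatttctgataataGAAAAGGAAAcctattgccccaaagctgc
Ncf1 (chr5:134229626-134229805, minus strand): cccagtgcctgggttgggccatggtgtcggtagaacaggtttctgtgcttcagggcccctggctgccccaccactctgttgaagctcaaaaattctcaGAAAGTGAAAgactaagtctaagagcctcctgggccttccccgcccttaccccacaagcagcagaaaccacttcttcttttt
Cyba (chr8:122432941-122433120, minus strand): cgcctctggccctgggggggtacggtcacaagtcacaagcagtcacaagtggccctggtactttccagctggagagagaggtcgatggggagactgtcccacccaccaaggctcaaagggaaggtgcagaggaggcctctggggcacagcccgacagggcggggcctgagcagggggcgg

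Every capital run is a match to the repeat of TTTC or to its reverse complement, GAAA and GAAA with 2 bases between. Cybb held 3 of them, which began 168, 124 and 29 bases before the start, and Ncf1 held 1, which began 82 bases before the start. Of 32851 RefSeq promoters of the same length, 2.98% held this motif, 23.3% held GAGGAA and 2.44% held GAGGAAGT. No match to GAGGAA or GAGGAAGT was present in the 3 windows, and no match to any of the motifs in that of Cyba. Shorter or other forms of ETS sites were not searched, so their absence is not shown. The matches describe letters only.

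Cyba, the membrane partner, was the most abundant subunit per length in every library. It measured 9.81, 9.60 and 9.11 CPM in the ZnPP+OA livers, 34.0, 50.3 and 44.4 CPM in the OA livers, and 2.60, 10.9 and 9.73 CPM in the Cont livers. All 3 OA livers lay above the other 6, and the ZnPP+OA livers were nearly equal to each other and to 2 of the Cont livers.

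Cybb, the catalytic subunit, is encoded on the X chromosome, and its loss causes the X-linked form of chronic granulomatous disease in humans. It measured 6.74, 7.48 and 11.5 CPM in the ZnPP+OA livers, 15.4, 24.3 and 24.0 CPM in the OA livers, and 1.60, 4.64 and 5.81 CPM in the Cont livers. The 3 groups did not overlap at any point, with ZnPP+OA between OA and Cont.

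Ncf1, the organizer, measured 6.71, 5.37 and 10.5 CPM in the ZnPP+OA livers, 16.5, 26.3 and 19.8 CPM in the OA livers, and 2.54, 5.13 and 6.32 CPM in the Cont livers. The OA livers stood apart, and the other groups overlapped. Ncf1 overlaps Gtf2ird2 on the opposite strand in the table's own coordinates. The libraries kept strand, but the strand setting of the counting was not given in the sources used here, so reads of the pair may not be fully separated. Gtf2ird2 had 23 to 706 counts per library and a log2 fold change of −0.17 ± 0.50 (SE) in OA against Cont (edgeR, adjusted p = 0.890).

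Ncf4, the phagosome-binding subunit, measured 4.42, 3.04 and 7.52 CPM in the ZnPP+OA livers, 13.1, 16.9 and 9.92 CPM in the OA livers, and 3.08, 3.90 and 5.79 CPM in the Cont livers. The OA livers were again the highest, with replicate 3 the lowest of them and replicate 3 the highest of the ZnPP+OA livers.

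Rac2, the GTPase, measured 9.58, 6.46 and 16.5 CPM in the ZnPP+OA livers, 19.7, 21.8 and 18.3 CPM in the OA livers, and 5.53, 13.6 and 12.1 CPM in the Cont livers. Again no OA liver was within the range of the others, but the gap was narrow. Counts behind these levels were 152 to 605 per gene and library in ZnPP+OA for the genes other than Ncf4 (86 to 275), 1421 to 9557 in OA for all 5 genes, and 53 to 847 in Cont. By CPM, Cont 1 was the lowest Cont liver for every one of the 5 genes. By raw counts Ncf4 had 102 in Cont 1 and 64 in Cont 2, and Ncf1 had 84 in each. By FPKM Cybb, Ncf1, Ncf4 and Rac2 were lowest in Cont 2.

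**Figure D1:**
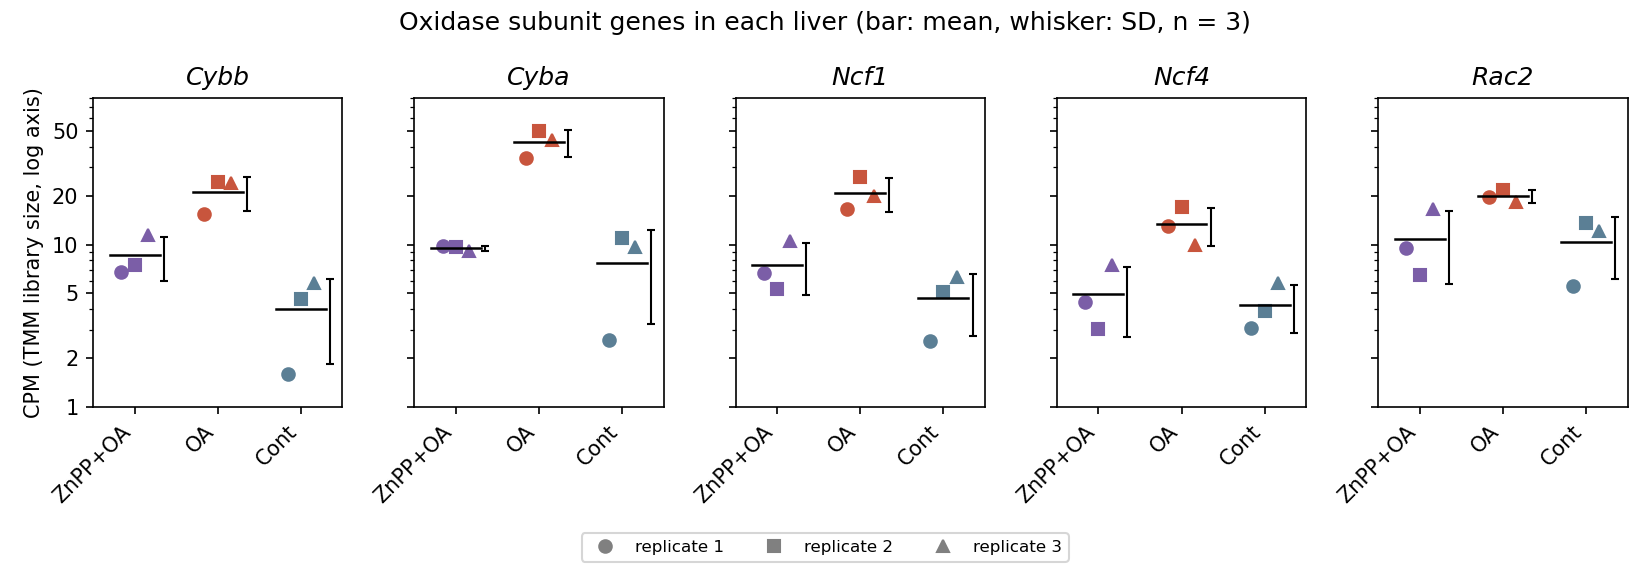
CPM (log axis, TMM library size) of each subunit gene in every liver, with ZnPP+OA left, OA in the middle and Cont right, symbols by replicate number, bars at the mean and whiskers of 1 SD (n = 3). The OA livers lie above both other groups for each gene, at 34.0 to 50.3 CPM for Cyba and 18.3 to 21.8 CPM for Rac2.

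In OA against Cont, 4 of the 5 subunit genes rose, where 2.4% of the 18895 genes tested were called higher and 2.8% lower (edgeR quasi-likelihood test, Benjamini-Hochberg adjusted p under 0.05 over all of them). Cyba averaged 42.9 ± 8.24 CPM in OA livers and 7.75 ± 4.50 CPM in Cont livers (SD, n = 3 each), and its log2 fold change was 2.47 ± 0.45 (SE, edgeR adjusted p = 0.00841) or 5.55-fold. Cybb averaged 21.2 ± 5.04 CPM in OA livers and 4.02 ± 2.17 CPM in Cont livers, and its log2 fold change was 2.40 ± 0.46 (edgeR adjusted p = 0.0112). Both subunits of the membrane cytochrome rose.

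Of the cytosolic subunits, Ncf1 averaged 20.9 ± 4.95 CPM in OA livers and 4.66 ± 1.93 CPM in Cont livers, with a log2 fold change of 2.16 ± 0.41 (edgeR adjusted p = 0.0109). Ncf4 averaged 13.3 ± 3.52 CPM in OA livers and 4.26 ± 1.39 CPM in Cont livers, with a log2 fold change of 1.64 ± 0.42 (edgeR adjusted p = 0.0412), the smallest rise of the 4. Rac2 averaged 19.9 ± 1.78 CPM in OA livers and 10.4 ± 4.29 CPM in Cont livers, and its log2 fold change of 0.94 ± 0.41 did not pass (95% interval 0.06 to 1.82, edgeR adjusted p = 0.196).

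All 5 genes were higher in every OA liver than in every Cont liver, as were 18.5% of all genes tested, and an exact permutation test of 3 against 3 livers gave its smallest possible p, 0.1, for each. The median log2 fold change was 2.16 over the 5 genes and 0.09 over all genes tested. Without OA 2 only Cyba passed (1 of 5), and with Cont 1 and Cont 2 left out together likewise 1 passed. The call of Ncf4 did not survive leaving out any one of Cont 1, Cont 2, the 3 OA livers or ZnPP+OA 1 (adjusted p between 0.0643 and 0.199), nor RLE scaling (adjusted p = 0.0569). With mitochondrial genes left out the same count of 4 passed.

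In ZnPP+OA against OA, Cyba was the one subunit gene of 5 that fell, where 1.26% of all genes tested were called lower and 1.6% higher. It averaged 9.51 ± 0.36 CPM in ZnPP+OA livers and 42.9 ± 8.24 CPM in OA livers, and its log2 fold change was −2.17 ± 0.44 (edgeR adjusted p = 0.0217), or 4.51-fold lower. The other 4 had negative fold changes that did not pass over all genes, as given next.

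Ncf1 averaged 7.53 ± 2.66 CPM in ZnPP+OA livers and 20.9 ± 4.95 CPM in OA livers (log2 fold change −1.47 ± 0.40, edgeR adjusted p = 0.0709). Ncf4 averaged 4.99 ± 2.30 CPM in ZnPP+OA livers and 13.3 ± 3.52 CPM in OA livers (log2 fold change −1.41 ± 0.42, edgeR adjusted p = 0.0940). Cybb averaged 8.58 ± 2.57 CPM in ZnPP+OA livers and 21.2 ± 5.04 CPM in OA livers (log2 fold change −1.31 ± 0.44, edgeR adjusted p = 0.131). These intervals did not span 0 before adjustment. Rac2 averaged 10.9 ± 5.16 CPM in ZnPP+OA livers and 19.9 ± 1.78 CPM in OA livers (log2 fold change −0.88 ± 0.40, edgeR adjusted p = 0.275).

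No ZnPP+OA liver reached the lowest OA liver for any of the 5 genes, as held for 19.2% of all genes tested (exact permutation p = 0.1 for each, the smallest 3 against 3 livers allow). With RLE scaling Rac2 overlapped and 4 genes did not. The count of called genes moved with the fit, and was 3 with DESeq2 (Cyba, Ncf1 and Ncf4), 4 with no filter on low counts, 5 with scaling by library totals or with limma on FPKM, and 3 without Cont 1. Cyba no longer passed when OA 2, OA 3 or any 1 of the 3 ZnPP+OA livers was left out (adjusted p between 0.0728 and 0.126), which left 0 called, and its fold change stayed between −2.34 and −2.07 whichever liver was left out.

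In ZnPP+OA against Cont, none of the 5 subunit genes passed, and 0% of all genes tested did by edgeR, although 8.16% had an unadjusted p under 0.05 and DESeq2 called 54 genes higher and 86 lower, with no subunit among them. Cybb had the largest fold change, with 8.58 ± 2.57 CPM in ZnPP+OA livers and 4.02 ± 2.17 CPM in Cont livers (log2 1.09 ± 0.44, 95% interval 0.14 to 2.05, edgeR adjusted p = 0.605). It was the single subunit gene whose ZnPP+OA livers all lay above all Cont livers, as 5.74% of all genes tested did, and under library totals or FPKM this separation was absent.

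Ncf1 averaged 7.53 ± 2.66 CPM in ZnPP+OA livers and 4.66 ± 1.93 CPM in Cont livers (log2 0.69 ± 0.40, 95% interval −0.17 to 1.55, edgeR adjusted p = 0.681). For Cyba, Ncf4 and Rac2 the log2 fold changes were 0.30 (95% interval −0.62 to 1.22), 0.22 (−0.67 to 1.12) and 0.06 (−0.81 to 0.94). These intervals hold both signs, so no direction is given. The comparisons share livers, so their values for a gene are not independent of each other.

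**Figure D2:**
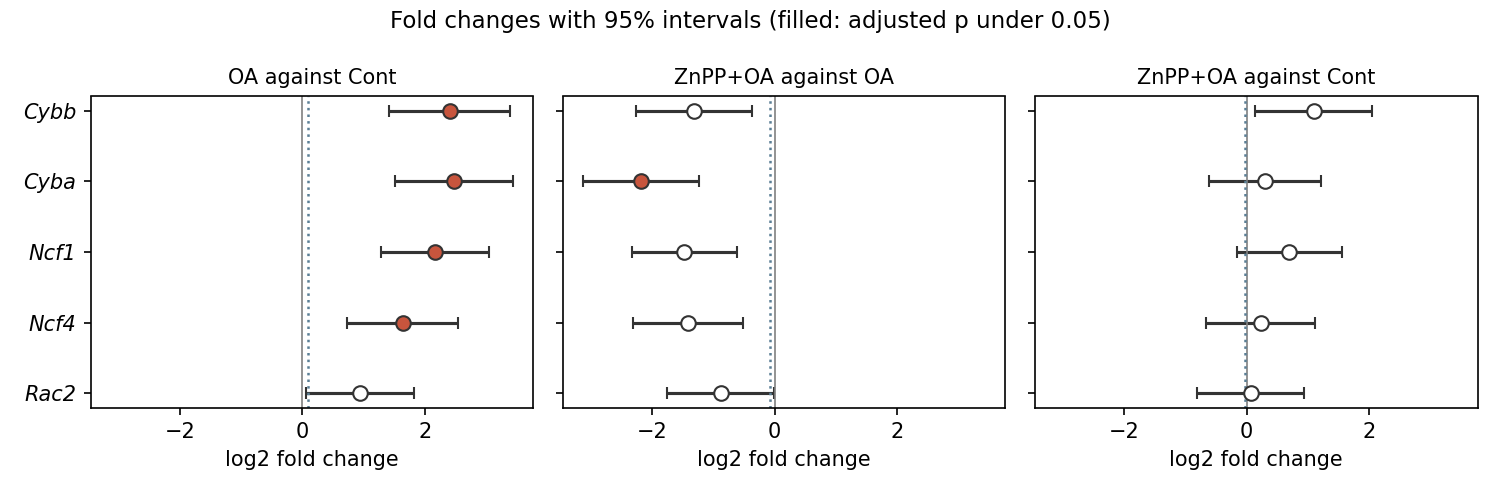
Log2 fold changes of the 5 subunit genes with 95% intervals from the edgeR fit in the 3 comparisons, filled where the adjusted p was under 0.05, with the median of all genes tested as a dotted line. In OA against Cont 4 genes are filled, in ZnPP+OA against OA only Cyba (−2.17), and in ZnPP+OA against Cont none.

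Within a library, FPKM (read fragments scaled by gene length and by library, which allow genes of different length to be set beside each other) gave one stable feature of the order. Cyba was the highest and Cybb the lowest of the 5 genes in all 9 libraries. The 3 other genes changed places, with Rac2 second in 7 libraries and Ncf4 second in OA 1 and OA 2. Cyba made up 50.5% ± 10.8 of the summed FPKM of the 5 genes in ZnPP+OA livers, 64.8% ± 2.84 in OA livers and 47.4% ± 9.27 in Cont livers (SD, n = 3 each), and Rac2 made up 18.1% ± 5.11 in ZnPP+OA livers, 10.2% ± 1.58 in OA livers and 23.4% ± 2.80 in Cont livers.

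The FPKM of a gene divided by that of Cyba in the same library does not depend on how libraries are scaled. The Rac2 to Cyba ratio was 0.326, 0.225 and 0.610 in the ZnPP+OA livers, 0.194, 0.145 and 0.138 in the OA livers, and 0.707, 0.418 and 0.416 in the Cont livers. All OA livers had less Rac2 per Cyba than all others, 0.316 times the Cont value by geometric means. The Cybb to Cyba ratio was 0.123, 0.139 and 0.227 in the ZnPP+OA livers, 0.0810, 0.0862 and 0.0968 in the OA livers, and 0.107, 0.0758 and 0.107 in the Cont livers. Here the ZnPP+OA livers stood apart, above all 6 others, at 1.79 times the OA value and 1.65 times the Cont value.

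The Ncf1 to Cyba ratio was higher in every ZnPP+OA liver (0.157 to 0.327) than in every OA liver (0.127 to 0.148) and overlapped in the other pairs of groups, while the Ncf4 to Cyba ratio overlapped in all 3 pairs. Of 12 comparisons of such ratios, 5 had groups that did not overlap, each with an exact two-sided permutation p of 0.1, the smallest possible, and 0.24 after Benjamini-Hochberg adjustment over the 12. None of the 12 passed, and leaving out any one liver or using counts for FPKM moved each by less than 1 SD. Relative to Cyba, 65.8% of all genes tested were lower without overlap in OA against Cont and 69.6% were higher without overlap in ZnPP+OA against OA, so most genes separated from Cyba in this way, as Rac2, Cybb and Ncf1 did. Cybb was among the 2.43% of all genes tested that were higher relative to Cyba without overlap in ZnPP+OA against Cont.

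**Figure D3:**
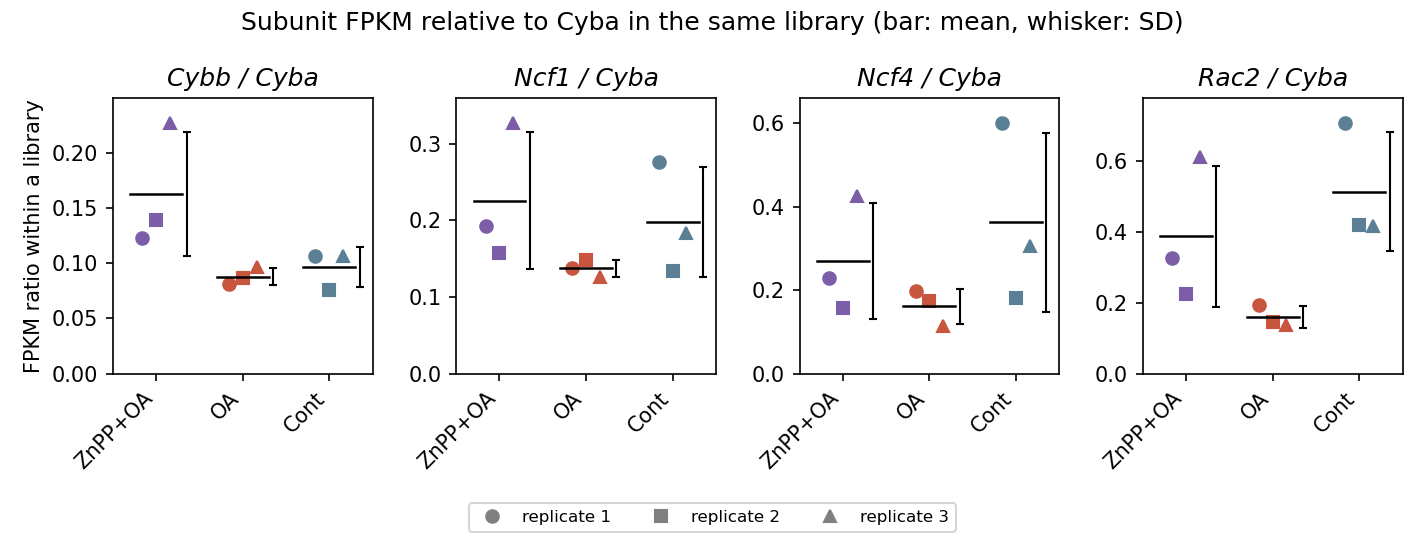
FPKM of Cybb, Ncf1, Ncf4 and Rac2 divided by that of Cyba in the same library, 1 symbol per liver, with bars at the mean and whiskers of 1 SD (n = 3). The Rac2 ratio is lowest in the OA livers (0.138 to 0.194), and the Cybb ratio is highest in the ZnPP+OA livers (0.123 to 0.227).

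Among themselves the genes followed each other to different degrees. With each gene centred on its own mean log2 CPM over the 9 livers, Cybb and Ncf1 were the closest pair (root mean square difference 0.30) and Cyba and Rac2 the most distant (0.81). Within groups, after removing group means, the smallest difference was between Ncf1 and Rac2 (0.19) and the largest between Cyba and Ncf4 (0.56). In the ZnPP+OA group, replicate 3 was the highest liver for Cybb, Ncf1, Ncf4 and Rac2, between 0.46 and 0.71 above the group's mean log2 CPM, while for Cyba it was the lowest (−0.06).

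Summed markers of macrophages were highest in the OA livers, as the subunit genes were, and those of neutrophils overlapped between ZnPP+OA and OA. The 12 Kupffer cell markers summed to 306 to 456 CPM in ZnPP+OA livers, 863 to 1209 CPM in OA livers and 194 to 406 CPM in Cont livers, and the 12 monocyte and macrophage markers to 130 to 196 CPM in ZnPP+OA livers, 456 to 711 CPM in OA livers and 81.1 to 170 CPM in Cont livers. The 14 neutrophil markers summed to 25.1 to 41.1 CPM in ZnPP+OA livers, 37.2 to 115 CPM in OA livers and 18.4 to 31.9 CPM in Cont livers, and of the defining neutrophil markers Ly6g, Elane, Camp and Stfa2l1 were at or near 0 (at most 0.610 CPM as a group mean) and were not tested. The part of these cells in the results was not tested. In whole liver, more phagocytes and more RNA of these genes per phagocyte cannot be told apart.

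Of the 12 Kupffer cell markers, 8 rose in OA against Cont (median log2 1.99) and 4 fell in ZnPP+OA against OA (median −1.34). Of all genes tested, 2.4% rose and 1.26% fell in these comparisons. The complement gene C1qa averaged 30.7 ± 8.28 CPM in ZnPP+OA livers, 159 ± 37.7 CPM in OA livers and 20.8 ± 11.3 CPM in Cont livers, and the hemoglobin scavenger receptor Cd163, C1qb and C1qc were called in both comparisons too. Of the 12 monocyte and macrophage markers, 8 rose (median 1.92) and 5 fell (median −1.72), among them Trem2, Gpnmb, Cd14 and Cd68 in both comparisons. Of the 10 pan-leukocyte markers, 5 rose and the same number fell, and Tyrobp, Fcer1g, Laptm5 and Cd53 were called in both. Ptprc (CD45), which all leukocytes carry, averaged 6.62 ± 0.401 CPM in ZnPP+OA livers, 6.72 ± 2.35 CPM in OA livers and 7.09 ± 1.94 CPM in Cont livers.

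Of the neutrophil markers 10 were tested, 1 rose in OA against Cont (Retnlg, log2 fold change 4.56 ± 1.11, edgeR adjusted p = 0.0334) and 0 fell in ZnPP+OA against OA, where 3 had an unadjusted p under 0.05 and DESeq2 called 2 lower. Their median log2 fold changes were 2.06 and −1.23, and the first was the same with Ngp, which had 0 counts in all Cont livers, set at its bound (at least 10.4-fold higher, for 3 counts over the group). The receptor genes Csf3r (log2 1.80 ± 0.55, adjusted p = 0.0794) and Cxcr2 (4.58 ± 1.72, adjusted p = 0.141) did not pass by edgeR, and DESeq2 called both higher.

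Set against the summed pan-leukocyte markers of the same library, the subunit genes divided. Cyba amounted to 9.09% ± 1.75 of that sum in ZnPP+OA livers, 14.6% ± 0.67 in OA livers and 6.93% ± 3.08 in Cont livers, without overlap in OA against Cont, where 3.23% of all genes tested were higher on this measure, and in ZnPP+OA against OA, where 2.5% were lower. Cybb amounted to 8.05% ± 1.92 in ZnPP+OA livers, 7.21% ± 0.93 in OA livers and 3.68% ± 1.65 in Cont livers. Ncf1 amounted to 6.95% ± 1.60 in ZnPP+OA livers, 7.09% ± 0.65 in OA livers and 4.37% ± 1.33 in Cont livers. Both genes were higher than Cont in each of the other groups without overlap. In ZnPP+OA against Cont 4.77% of all genes tested were so, and in OA against Cont 3.23%. For Ncf1 the lowest ZnPP+OA liver (5.90%) was barely above the highest Cont liver (5.86%). Ncf4 amounted to 4.55% ± 1.52 in ZnPP+OA livers, 4.57% ± 1.06 in OA livers and 4.13% ± 1.19 in Cont livers. Its values overlapped in each pair of groups. Rac2 amounted to 9.89% ± 3.46 in ZnPP+OA livers, 6.90% ± 0.99 in OA livers and 9.63% ± 2.11 in Cont livers, with overlap in each pair of groups.

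The choice of list mattered for this measure. In OA against Cont, 3 genes (Cybb, Cyba and Ncf1) were higher without overlap relative to pan-leukocyte or Kupffer cell markers, where 3.23% and 3.01% of all genes tested were. Relative to neutrophil or to monocyte and macrophage markers 0 of the 5 were, where 2.57% and 2.28% of all genes tested were. Relative to the monocyte and macrophage list Rac2 was lower in every OA liver (3.48% ± 0.88) than in every Cont liver (7.87% ± 0.99), as 60.7% of all genes tested were, and relative to Kupffer cell markers it was likewise lower (1.98% ± 0.41 in OA livers and 3.14% ± 0.40 in Cont livers), as 51.1% were. On the monocyte and macrophage list Ncf1 was nearly level at 3.56% ± 0.74 in OA livers and 3.58% ± 0.88 in Cont livers. Cyba was lower in ZnPP+OA against OA without overlap relative to pan-leukocyte, Kupffer cell and neutrophil markers (2.5%, 2.39% and 2.54% of all genes tested) but overlapped relative to monocyte and macrophage markers, at 5.77% ± 1.42 in ZnPP+OA livers and 7.29% ± 0.98 in OA livers. Relative to those markers Rac2 was higher without overlap, at 6.25% ± 2.27 in ZnPP+OA livers and 3.48% ± 0.88 in OA livers, as 63.6% of all genes tested were. These shares are descriptions of 3 livers a group and were not tested.

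Of the other NADPH oxidase genes named here, 7 had enough counts to be tested. Nox4, an oxidase of hepatocytes and stellate cells that also pairs with Cyba, averaged 3.66 ± 1.37 CPM in ZnPP+OA livers, 3.48 ± 1.79 CPM in OA livers and 12.2 ± 4.58 CPM in Cont livers. Its log2 fold change in OA against Cont was −1.81 ± 0.51 (edgeR adjusted p = 0.0610), a difference that DESeq2 called lower. Nox4 passed by edgeR in no comparison. None of the other 6 passed by edgeR or DESeq2 in any comparison, and none of them had an unadjusted edgeR p under 0.05. Rac1, the GTPase found in most cells, averaged 35.9 ± 9.04 CPM in ZnPP+OA livers, 53.2 ± 15.8 CPM in OA livers and 42.1 ± 13.2 CPM in Cont livers. Rap1a and Cybc1, which encodes the chaperone Eros needed for the Cybb protein, had log2 fold changes in OA against Cont of −0.36 ± 0.38 and −0.15 ± 0.54. Noxo1 (2.59 ± 1.70), Noxa1 (1.62 ± 1.82) and Rac3 (−1.02 ± 1.78) averaged at most 1.03 CPM in any group and had wide errors. Nox1, Duox1, Duox2, Duoxa1 and Duoxa2 had at most 52 counts in a library and were not tested, and Nox3 was not analysed here.

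Of 16 genes of receptors that trigger the burst, 4 rose in OA against Cont (Fcgr4, Itgam, Fcgr3 and Csf2rb, list median 2.19) and 4 fell in ZnPP+OA against OA (Fcgr4, Itgam, Csf2rb and Fpr2, list median −1.81). Itgam, the alpha chain of complement receptor CR3, averaged 0.738 ± 0.597 CPM in ZnPP+OA livers, 12.5 ± 4.86 CPM in OA livers and 1.08 ± 0.565 CPM in Cont livers. Fcgr4, an activating receptor for immunoglobulin G, averaged 3.89 ± 2.05 CPM in ZnPP+OA livers, 18.6 ± 3.25 CPM in OA livers and 3.52 ± 0.271 CPM in Cont livers. The formyl peptide receptor Fpr2 was named after its values were seen. Over all genes tested, 2.4% rose in OA against Cont and 1.26% fell in ZnPP+OA against OA.

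Of 22 genes of kinases, exchange factors and other activators, 2 rose in OA against Cont, and the list median was 0.69. The 2 were the Src family kinases Lyn (log2 fold change 1.17 ± 0.29, edgeR adjusted p = 0.0370) and Fgr (1.96 ± 0.49, edgeR adjusted p = 0.0356). Over all genes tested, 2.4% rose there, and 1.26% fell in ZnPP+OA against OA. The guanine nucleotide exchange factor Vav1, which loads Rac GTPases, was the 1 that fell in ZnPP+OA against OA (−1.62 ± 0.36, edgeR adjusted p = 0.0301), and Prkcd, a kinase of Ncf1, passed in neither comparison.

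Genes that supply or handle the oxidants changed in part. Of 14 tested, 2 rose in OA against Cont, and 1 of them fell in ZnPP+OA against OA. Over all genes tested, 2.4% rose and 1.26% fell in these comparisons. Pgd, an enzyme of the pentose phosphate pathway that makes the NADPH the oxidase consumes, averaged 26.7 ± 10.9 CPM in ZnPP+OA livers, 75.1 ± 7.77 CPM in OA livers and 18.1 ± 4.52 CPM in Cont livers, and was called in both. Slc11a1, a metal transporter of phagosomes, rose in OA against Cont (log2 1.40 ± 0.36, edgeR adjusted p = 0.0439). Prdx1 (0.98 ± 0.40) and Cat (−0.96 ± 0.41) did not pass by edgeR, and DESeq2 called Cat.

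Of 14 tested genes of transcription factors known for oxidase genes, 1 rose in OA against Cont, where 2.4% of all genes tested rose. Spi1, which encodes PU.1, averaged 17.4 ± 2.2 CPM in ZnPP+OA livers, 30.9 ± 1.59 CPM in OA livers and 8.93 ± 5.72 CPM in Cont livers, with log2 fold changes of 1.80 ± 0.47 in OA against Cont (edgeR adjusted p = 0.0429) and −0.83 ± 0.45 in ZnPP+OA against OA (edgeR adjusted p = 0.374). Rela (1.17 ± 0.36), Nfkb1 (−0.91 ± 0.34) and Cebpe (−1.42 ± 0.55) did not pass by edgeR in OA against Cont. DESeq2 called Rela and Nfkb1 there, and Cebpe in ZnPP+OA against OA.

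**Figure D4:**
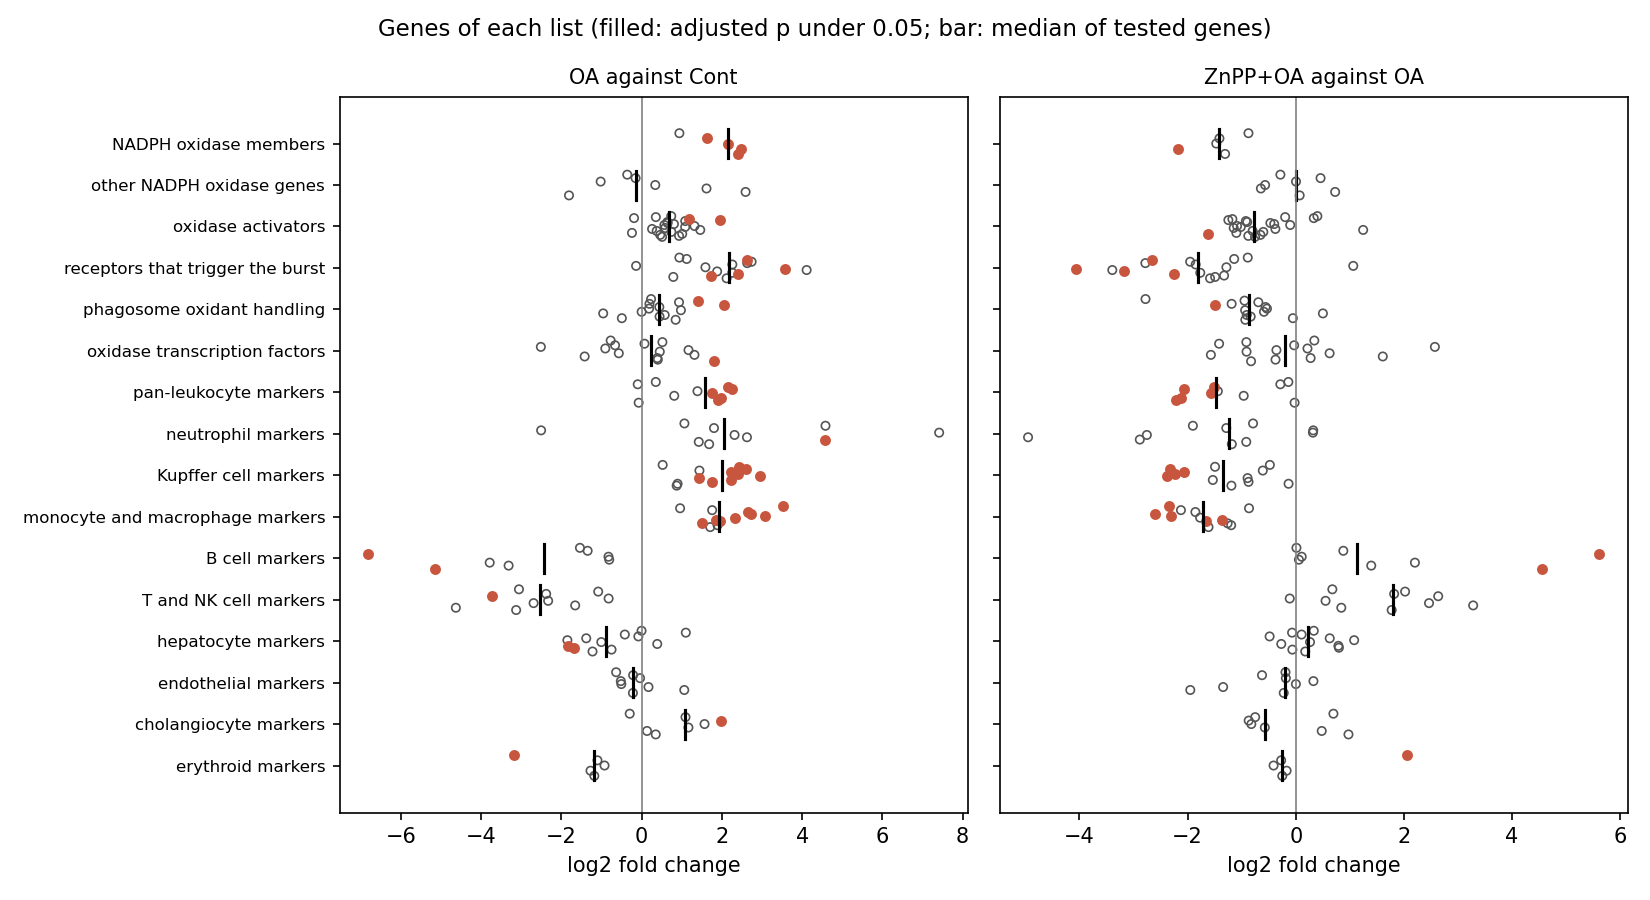
Log2 fold changes of the tested genes of each list, 1 circle per gene, filled where the edgeR adjusted p was under 0.05, with the list median as a bar, for OA against Cont (left) and ZnPP+OA against OA (right). The subunit genes (medians 2.16 and −1.41) are on the same side of 0 as the medians of the receptor, Kupffer cell and monocyte and macrophage lists, and the other NADPH oxidase genes lie on both sides, with none filled.

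The genes whose levels ran most like the mean of the 5 subunit genes were sought by the root mean square difference of centred log2 CPM over the 9 libraries, in 7604 genes that code for proteins and averaged 5 CPM or more. The 10 nearest were Mob3a, Fxyd5, Il4ra, Pdcd5, Alox5ap, Anxa3, Cerk, Ano10, Pmm1 and Mpeg1, at 0.21 to 0.30, against a median of 0.98 over all genes compared. Mpeg1, which encodes the pore-forming macrophage protein perforin-2, had a log2 fold change of −1.86 ± 0.34 in ZnPP+OA against OA (edgeR adjusted p = 0.0158) and also rose in OA against Cont (edgeR adjusted p = 0.00428).

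By member, the nearest gene was Ano10 for both Cybb (0.24) and Ncf1 (0.23), Plscr1 for Cyba (0.28), Mrpl33 for Ncf4 (0.24) and Aif1, which encodes the macrophage protein Iba1, for Rac2 (0.23). Aif1 had log2 fold changes of 0.71 ± 0.35 and −0.70 ± 0.35 in the 2 comparisons, neither of which passed. With RLE scaling the same 10 genes were found, and without Cont 1 only 2 of them were.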

How the data were processed

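Per the labels, poly(A) RNA went into stranded libraries with paired reads. The authors deposited 1 table of raw counts and FPKM per gene, and the submitters' processing notes list edgeR, DESeq2, StringTie 2.1.6, HISAT2 2.2.1, cutadapt 1.9 and the build mm10. The tool behind the counts was not given in the sources used here. The table's gene starts and ends equal those of GENCODE M21 for 772 of 34019 genes, so none of its coordinates are printed. Deposited counts were tested with edgeR 4.0.16 in R 4.3.3 (filterByExpr with min.count 10 and min.total.count 15, TMM, quasi-likelihood F tests in 1 fit of the 3 groups, Benjamini-Hochberg over 18895 genes, threshold 0.05). FPKM deposited by the authors served for ratios within a library and for limma 3.58.1 on log2(FPKM + 1) or log2(FPKM + 0.1) in genes with an FPKM of at least 1 in 3 libraries, an alternative beside DESeq2 1.42.0. Log2 CPM used a prior count of 2. The tests were checked on simulated data. Replicates differed by more than counting noise (chi-square per degree of freedom from 116.8 to 1433 in genes whose pair summed to 40 counts or more). All subunit genes are named, all other oxidase genes, up to 4 genes of each further list with the smallest p in OA against Cont, and the nearest genes by level. Members and lists were chosen with earlier results of these data known. Single genes of the B cell and T and NK cell lists, and 1 gene taken off the list of other oxidase genes for a reason unrelated to its values, although after they were seen, are not reported here.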

Additional observations from a re-analysis of the deposited data

How the results depend on the processing

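The count of subunit genes called in OA against Cont was 4, and 3 to 5 under the alternatives, except 1 with Cont replicates 1 and 2 left out together and 1 to 4 when 1 liver was left out. In ZnPP+OA against OA the count was 1, and it was 2 with at least 10 counts in every library, 3 with DESeq2 or with only the 6 compared libraries, 4 with no filter or with Cont 1 and 2 left out together, 5 with library totals and with limma on log2(FPKM + 1), with or without a filter, or on log2(FPKM + 0.1), and 0 to 3 when 1 liver was left out. Library totals and FPKM carry the mitochondrial share of each library, and library totals moved the median of all genes to 1.48 in OA against Cont and −1.85 in ZnPP+OA against OA. In ZnPP+OA against Cont the count stayed 0. No direction of a subunit gene changed in OA against Cont or ZnPP+OA against OA under the alternatives run. Sizes did change, and log2 fold changes in OA against Cont ranged from 2.08 to 4.34 for Cyba and 1.91 to 3.89 for Cybb. Those of Ncf1, Ncf4 and Rac2 ranged there from 1.76 to 3.72, 1.24 to 3.23 and 0.65 to 2.65. In ZnPP+OA against Cont, where nothing was called, Ncf4 and Rac2 turned to −0.14 and −0.11 with library totals, to −0.015 and −0.035 with limma on log2(FPKM + 1), with or without a filter, and to −0.22 and −0.16 with Cont 1 and 2 left out, where Cyba turned to −0.043. Rac2 was −0.047 on log2(FPKM + 0.1). With 1 liver left out, Cyba ranged from −0.11 to 0.62, Ncf4 from −0.19 to 0.53 and Rac2 from −0.37 to 0.33. The number of subunit genes without overlap in ZnPP+OA against Cont was 0 under library totals and FPKM. RLE scaling called 316 genes higher and 634 lower over all genes in OA against Cont, against 454 and 530, and DESeq2 called 833 and 1609. In ZnPP+OA against OA, DESeq2 called 1005 higher and 631 lower against 303 and 239. With a replicate block, same-numbered livers correlated at −0.10 to 0.01, so the numbers were not read as pairs, and 3 and 1 subunit genes were called, Ncf4 at an adjusted p of 0.0667. Counts per subunit gene were 53 to 183 in Cont 1 and 64 to 223 in Cont 2. The cause of these shifts was not tested.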

Other observations

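The 8 B cell markers summed to 7.47 to 12.1 CPM in ZnPP+OA livers, 2.54 to 4.13 CPM in OA livers and 13.0 to 28.1 CPM in Cont livers, and the 10 T and NK cell markers to 3.43 to 9.38, 1.38 to 2.00 and 5.17 to 19.5 CPM in ZnPP+OA, OA and Cont livers. In OA against Cont, 2 of the B cell markers and 1 of the T and NK cell markers fell (edgeR), with list medians of −2.43 and −2.54, and in ZnPP+OA against OA 2 and 0 rose (of the T and NK cell markers 1 had an unadjusted p under 0.05, and DESeq2 called 1 higher). Over all genes tested, 2.8% fell in OA against Cont and 1.6% rose in ZnPP+OA against OA. Ptprc, carried by lymphocytes and phagocytes alike, averaged 6.62 CPM in ZnPP+OA livers, 6.72 CPM in OA livers and 7.09 CPM in Cont livers.

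Of 12 hepatocyte markers, 2 fell in OA against Cont by edgeR (Apoa2, log2 fold change −1.68 ± 0.36, and Ttr, −1.82 ± 0.47). Fga (−1.85 ± 0.51) and Serpina1a (−1.38 ± 0.49) did not pass by edgeR, and DESeq2 called both. The list median was −0.88, and 2 of the 12 had positive fold changes. DESeq2 called 7 of the 12 lower and 1 higher in OA against Cont. The 7 cholangiocyte markers summed to 155 to 192 CPM in ZnPP+OA livers, 187 to 299 CPM in OA livers and 60.6 to 121 CPM in Cont livers, and 1 rose in OA against Cont (Spp1, 1.99 ± 0.40), with values for Sox9 of 1.57 ± 0.52, for Epcam of 1.17 ± 0.49 and for Cldn4 of 1.09 ± 0.87 that did not pass. None of the 8 endothelial markers was called by edgeR in either comparison (1 and 2 had an unadjusted p under 0.05, and DESeq2 called 0 and 1, Lyve1 in ZnPP+OA against OA), with log2 fold changes in OA against Cont of 1.06 for Lyve1, −0.64 for Ptprb, −0.51 for Pecam1 and −0.52 for Kdr. Of the 5 erythroid markers tested, Alas2, the first enzyme of heme synthesis in red cells, fell in OA against Cont (−3.18 ± 0.40). It rose in ZnPP+OA against OA (2.05 ± 0.38). The globin genes Hba-a2 (−1.28 ± 0.49), Hbb-bt (−1.10 ± 0.43) and Hba-a1 (−1.18 ± 0.52) did not pass by edgeR in OA against Cont. DESeq2 called Hba-a2 and Hbb-bt lower there.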
